A study of Mus musculus with 24 samples.

Results

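Fatty acid uptake and binding in mouse liver was followed through 9 genes: the membrane receptor gene Cd36, the fatty acid transport protein genes Slc27a1, Slc27a2, Slc27a4 and Slc27a5, the fatty acid binding protein genes Fabp1, Fabp2 and Fabp4, and the lipoprotein receptor gene Vldlr. They were taken by symbol from the gene tables of all 24 libraries, and all 9 were found among the 17537 genes listed in at least 1 table. Fatty acid uptake and binding proteins bring long-chain fatty acids across the plasma membrane, activate them and carry them through the cytosol. Cd36 and the Slc27 proteins act at membranes, and several Slc27 proteins also join coenzyme A to the fatty acid. The Fabp proteins are small cytosolic lipid carriers, of which Fabp1 is the abundant liver form, Fabp2 the intestinal form and Fabp4 the form of adipocytes and macrophages. Many genes of this kind are known targets of the nuclear receptor PPARα, which peroxisome proliferators such as phthalate metabolites activate in rodent liver.

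RNA was sequenced from the liver of male C57BL/6 mice with body weights of 20 to 30 g, which were treated by gavage. The combination group received di(2-ethylhexyl) phthalate (DEHP, a plasticiser) at 2500 mg/kg together with ethanol at 1 g/kg, the DEHP group 2500 mg/kg DEHP alone, the ethanol group 1 g/kg ethanol alone, and the vehicle group 0.5% CMC. Each group had 6 libraries, although the labels describe 12 mice per group and do not say how mice were divided among libraries, so the p-values measure the spread between these libraries, which may in part be technical. CMC is named for the vehicle group alone. If the other groups went without it, the carrier and the treatment cannot be told apart wherever vehicle is compared.

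Total expected counts lay between 7324793 and 8016662 per library, and FPKM, reads scaled to transcript length and library size, allows levels of different genes to be set side by side. Livers expressed hepatocyte markers at a summed 45068 to 49750 FPKM with the combination, 43902 to 52058 with DEHP, 60347 to 74119 with ethanol and 52948 to 72542 with vehicle. Of 9 hepatocyte markers tested, 6 were lower and 1 higher with DEHP than with vehicle, and 7 lower and 1 higher with the combination. Over all genes 26% changed in either direction with DEHP and 36.8% with the combination. In 3 libraries markers of other tissues stood far above the rest. The sum of 13 skeletal muscle markers was 5529 FPKM in combination replicate 6 and 7552 FPKM in vehicle replicate 1, against at most 5 FPKM in the other libraries. DEHP replicate 6 held 638 FPKM of 11 summed exocrine pancreas markers, where no other library passed 38.2 FPKM. Results that turn on these libraries are given with and without them, and their part in the other results was not tested beyond that. In whole tissue, fewer cells of a type and less RNA per cell cannot be told apart.

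All 9 genes passed the expression filter of at least 1 FPKM in at least 6 libraries. Cd36, the 4 Slc27 genes and the 3 Fabp genes did so in 24 of 24 libraries. Vldlr reached 1 FPKM in 9 libraries, 4 of them with the combination, 4 with DEHP, 0 with ethanol and 1 with vehicle. It therefore entered the test mainly through the groups in which it was high, and its calls between groups with and without DEHP are no support for a shared change.

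DEHP raised most of these genes, with or without ethanol. Against vehicle, 7 of the 9 rose with DEHP alone and 0 fell (edgeR quasi-likelihood test, adjusted p below 0.05 over 10697 genes), where 14.4% of all genes rose and 26% changed in either direction. The 6 libraries of each group did not overlap in FPKM for 6 of the 9, which held for 9.96% of all genes. The genes that rose were Slc27a1, Cd36, Fabp4, Fabp1, Fabp2, Slc27a4 and Slc27a2, in falling order of fold from 7.68 for Slc27a1 and 7.46 for Cd36 to 1.53 for Slc27a2. Slc27a5 and Vldlr did not pass the test. The median log2 change of the 9 was 1.01, and that of all genes -0.02. The 9 were chosen with earlier results of these data known. Their excess over all genes, here and in the later comparisons, is therefore a description and not independent support.

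With the combination against vehicle, 7 of the 9 rose and 0 fell, where 19.3% of all genes rose and 36.8% changed in either direction. Groups did not overlap for 6 of the 9, against 16.1% of all genes. The median log2 change was 1.34, and that of all genes -0.01. Slc27a5 and Vldlr were again the genes outside the threshold. Both comparisons use the same vehicle libraries, so their likeness is not independent evidence.

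**Figure D1:**
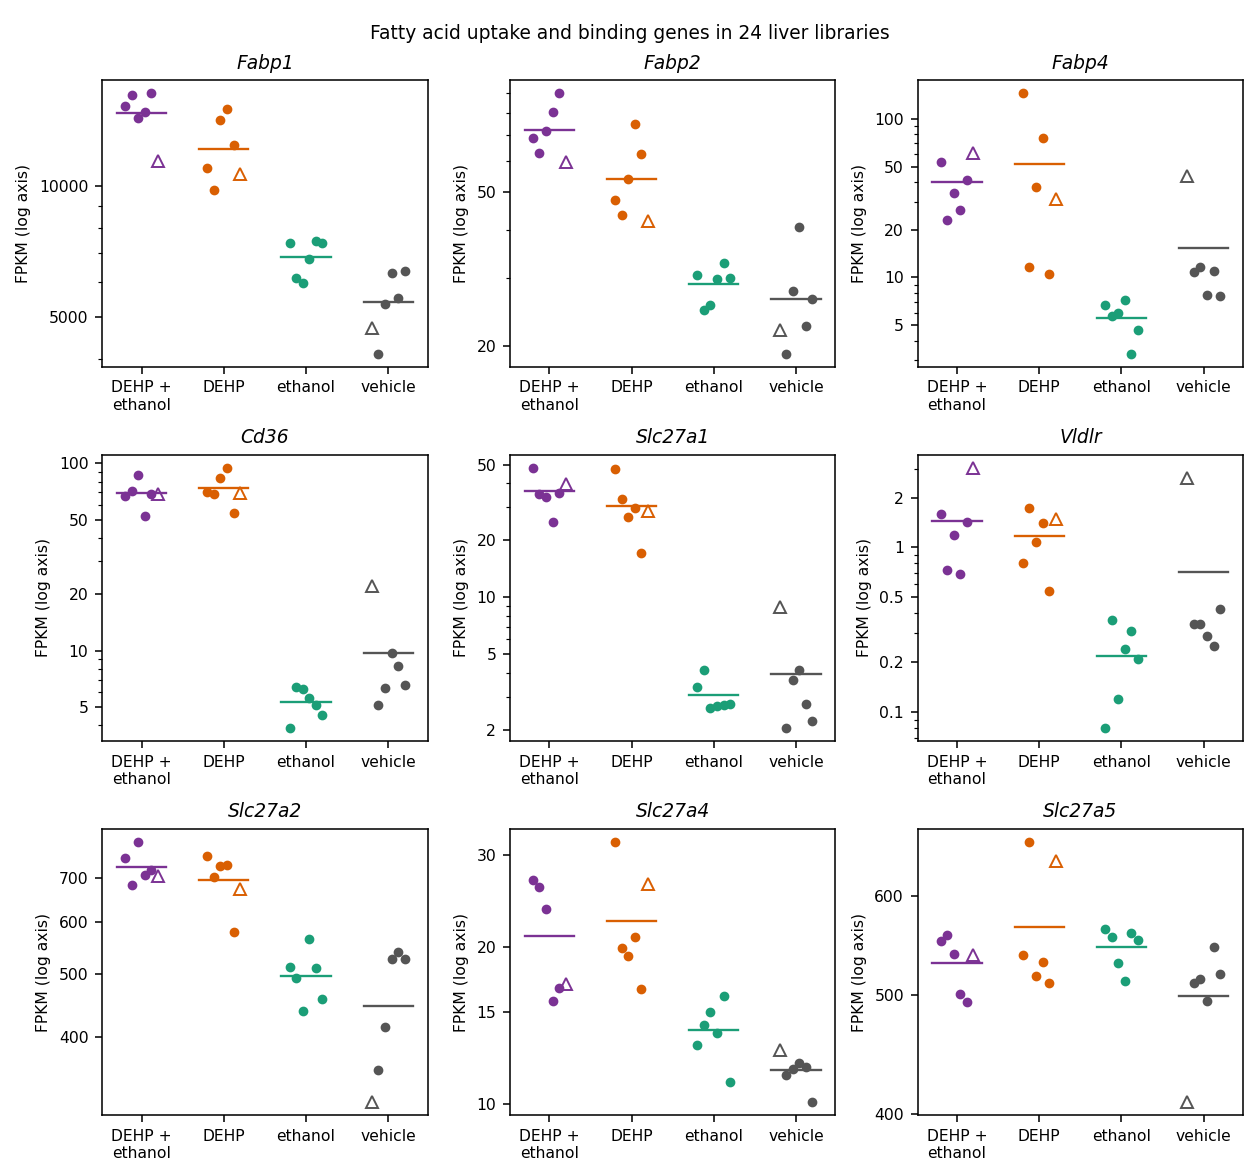
FPKM (log axes) of each of the 9 genes in every library, with the combination, DEHP, ethanol and vehicle side by side; each point is a library, the bar is the mean of 6, and open triangles mark combination replicate 6, DEHP replicate 6 and vehicle replicate 1. Cd36 and Slc27a1 lie higher in every library with DEHP than in any without it, while the 4 groups of Slc27a5 share a range, and the vehicle triangle stands above the other vehicle libraries for Cd36, Slc27a1, Fabp4 and Vldlr.

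Fabp1 (gene 14080, chr6:71199879-71205034 in GRCm38.p6), the main cytosolic fatty acid carrier of hepatocytes, was the most abundant of the set in every group. It ran between 11461 and 16384 FPKM with the combination (median 15049.5), between 9814 and 15103 with DEHP (median 11743), between 5969 and 7495 with ethanol (median 7093) and between 4108 and 6391 with vehicle (median 5433). Every library with DEHP lay above every library without it. Means were 14754 ± 1793 FPKM with the combination, 12216 ± 2093 with DEHP, 6867 ± 672 with ethanol and 5397 ± 891 with vehicle (SD, n = 6 each). The log2 change was 1.15 ± 0.12 (SE, adjusted p = 8.56e-08, edgeR) for DEHP against vehicle, and the combination was 2.68-fold above vehicle (95% interval 2.26 to 3.18, adjusted p = 1.77e-09). By FPKM Fabp1 ranked 4 to 6 among all genes in combination libraries, 4 to 6 in DEHP libraries, 13 to 22 in ethanol libraries and 15 to 23 in vehicle libraries.

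The promoter of Fabp1 is shown because it alone, among 10 promoter windows that matched 7 of the 9 genes, held a near-direct repeat of the kind that PPARα with its partner RXR is known to bind; Fabp2, which rose beside Fabp1, and Cd36, with 1 of the highest folds, are shown for comparison. Windows run from 250 bases before to 50 bases after a RefSeq transcript start (GRCm38.p6, printed in the direction of transcription): chr6:71199629-71199928, plus strand, for Fabp1, chr3:122894822-122895121, plus strand, for Fabp2, and chr5:17835847-17836146, minus strand, for a transcript start inside the Cd36 locus. Capitals mark AGGNCANAGGNCA and CCAAT on either strand and TATAAA on the strand shown.
Fabp1: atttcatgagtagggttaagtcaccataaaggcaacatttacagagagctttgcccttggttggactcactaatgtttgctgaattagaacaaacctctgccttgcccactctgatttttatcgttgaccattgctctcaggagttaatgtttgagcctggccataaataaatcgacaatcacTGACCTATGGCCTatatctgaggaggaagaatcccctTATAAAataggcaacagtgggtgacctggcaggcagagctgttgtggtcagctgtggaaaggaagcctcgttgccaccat
Fabp2: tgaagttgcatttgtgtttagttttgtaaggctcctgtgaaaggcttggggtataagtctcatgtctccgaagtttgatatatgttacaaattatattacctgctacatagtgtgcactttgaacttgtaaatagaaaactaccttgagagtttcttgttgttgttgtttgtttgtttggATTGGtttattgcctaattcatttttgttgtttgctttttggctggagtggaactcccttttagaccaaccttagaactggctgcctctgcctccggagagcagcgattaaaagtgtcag
Cd36: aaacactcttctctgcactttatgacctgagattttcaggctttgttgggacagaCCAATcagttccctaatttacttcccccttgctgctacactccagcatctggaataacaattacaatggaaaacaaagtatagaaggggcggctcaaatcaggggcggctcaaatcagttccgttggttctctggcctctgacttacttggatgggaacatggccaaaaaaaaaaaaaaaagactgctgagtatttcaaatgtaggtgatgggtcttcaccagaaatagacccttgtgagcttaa
AGGNCANAGGNCA occurred in 125 of 32851 such windows (0.381%), and in Fabp1 it read TGACCTATGGCCT on the strand shown, at -67 to -55 from the start. The stricter AGGTCANAGGTCA occurred in 13 windows (0.0396%) and in none of the 10 windows of these genes. TATAAA occurred in 13.6% of windows, counted on either strand, and at -30 to -25 of Fabp1 on the strand shown. CCAAT occurred in 37.4% of windows and in 5 of the 10, among them those of Fabp2 at -70 to -66 and Cd36 at -195 to -191. A match describes letters in the window and shows no binding.

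Fabp2 (gene 14079, chr3:122895072-122899506), the carrier known from the intestinal lining, was present at a far lower level. Its range was 59.9 to 89.9 FPKM with the combination (median 70.4), 42.0 to 75.0 with DEHP (median 50.8), 24.8 to 32.8 with ethanol (median 29.9) and 19.1 to 40.5 with vehicle (median 24.6). Every DEHP library lay above every vehicle library, the closest being DEHP replicate 6 and vehicle replicate 4. Log2 changes were 1.01 ± 0.15 (SE, adjusted p = 2.38e-05, edgeR) for DEHP and 1.44 ± 0.15 (adjusted p = 8.82e-08) for the combination, each against vehicle. The lncRNA gene 4933405D12Rik overlaps Fabp2, and whether counting used strand is not given, so reads of the pair may not have been separable. Of 9 enterocyte markers 7 were listed, and an unlisted gene, set to 0, is no evidence of absence. In every combination, ethanol and vehicle library 4 were at 0, among them Lct and the unlisted Sis, which define enterocytes. With DEHP 2 of the 9 markers were at 0 in every library, and Lct reached 0.04 FPKM. Anpep, at 41.4 to 50.6 FPKM with the combination, 35.4 to 69.5 with DEHP, 42.8 to 47.9 with ethanol and 35.4 to 44.6 with vehicle, made up nearly all of their sum, and the others stayed at or below 0.36 FPKM in every library.

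Cd36 (gene 12491, chr5:17781690-17888959), the scavenger receptor that takes up long-chain fatty acids, was low in livers without DEHP and high in all with it. It measured 52.3 to 86.4 FPKM with the combination (median 69.0), 54.1 to 95.02 with DEHP (median 69.9), 3.86 to 6.43 with ethanol (median 5.36) and 5.11 to 22.0 with vehicle (median 7.40). The lowest library with DEHP in either group stood at more than the highest vehicle library, replicate 1, which itself stood above the 5.11 to 9.77 FPKM of the other 5. Log2 changes were 2.90 ± 0.24 (SE, adjusted p = 2.85e-09, edgeR) for DEHP and 2.83 ± 0.24 (adjusted p = 2.47e-09) for the combination, each against vehicle. Without the 3 libraries that held muscle or pancreas transcripts they were 3.31 ± 0.18 and 3.23 ± 0.18. Of 11 markers of endothelial cells, which can also express Cd36 and Fabp4, 0 were higher and 1 was lower with DEHP than with vehicle. Over all genes 14.4% rose and 26% changed in either direction. The part of endothelial cells in the Cd36 result was not tested.

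Slc27a1 (gene 26457, chr8:71568728-71587307), the transport protein best known from muscle and fat, rose in the same groups as Cd36. Its FPKM lay at 25.0 to 48.2 with the combination (median 35.1), 17.0 to 47.5 with DEHP (median 29.1), 2.60 to 4.15 with ethanol (median 2.73) and 2.05 to 8.94 with vehicle (median 3.21). Groups with and without DEHP did not overlap, and vehicle replicate 1 was again the highest library without DEHP. Against vehicle the log2 change was 2.94 ± 0.26 (SE, adjusted p = 9.32e-09, edgeR) for DEHP, and it was 3.19 ± 0.27 (adjusted p = 1.76e-09) for the combination. Without the 3 libraries the values were 3.34 ± 0.24 and 3.55 ± 0.24.

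Slc27a4 (gene 26569, chr2:29802634-29817522), a transport protein with acyl-CoA synthetase activity, was modestly expressed. Levels were 15.7 to 26.9 FPKM with the combination (median 20.3), 16.6 to 31.8 with DEHP (median 20.4), 11.01 to 16.1 with ethanol (median 13.9) and 10.1 to 12.7 with vehicle (median 11.7). Libraries with DEHP lay above all vehicle libraries, while combination and ethanol libraries overlapped. The log2 change was 0.96 ± 0.16 (SE, adjusted p = 5.51e-05, edgeR) for DEHP and 0.88 ± 0.16 (adjusted p = 9.44e-05) for the combination, each against vehicle.

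Slc27a2 and Slc27a5 are the 2 abundant liver transport proteins: Slc27a2 (gene 26458, chr2:126553024-126588243) activates very long-chain fatty acids, and Slc27a5 (gene 26459, chr7:12988346-12998192) also joins bile acids to coenzyme A. Slc27a2 measured 683.5 to 796 FPKM with the combination (median 715), 579 to 757 with DEHP (median 716), 439 to 565 with ethanol (median 501) and 318 to 539 with vehicle (median 471). All libraries with DEHP stood above all without it, the closest being DEHP replicate 5 and ethanol replicate 4. Its log2 change was 0.61 ± 0.11 (SE, adjusted p = 2.61e-04, edgeR) for DEHP and 0.69 ± 0.11 (adjusted p = 4.16e-05) for the combination against vehicle. Slc27a5 measured 493 to 559 FPKM with the combination (median 538), 511 to 664 with DEHP (median 535), 512 to 564.5 with ethanol (median 555) and 409 to 546 with vehicle (median 513). These ranges overlapped in every pairing. The log2 change of Slc27a5 was 0.17 with DEHP (95% interval -0.01 to 0.35, adjusted p = 0.156) and 0.08 with the combination (-0.10 to 0.26, adjusted p = 0.488), so a rise of the size seen for Slc27a2 lies outside both intervals.

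The order of these levels changed between groups. Slc27a2 stood above Slc27a5 in 6 of 6 combination libraries, 6 of 6 DEHP libraries, 1 of 6 ethanol libraries and 2 of 6 vehicle libraries. The ratio of Slc27a2 to Slc27a5 in FPKM had a median of 1.39 with the combination, 1.26 with DEHP, 0.90 with ethanol and 0.90 with vehicle. The 4 Slc27 genes summed to 1315 ± 58.7 FPKM with the combination, 1316 ± 104.4 with DEHP, 1059 ± 44.3 with ethanol and 962 ± 132 with vehicle (SD, n = 6 each). Slc27a1 made up a median 2.73% of that sum with the combination, 2.17% with DEHP, 0.266% with ethanol and 0.319% with vehicle. Fabp1 supplied at least 98.28% of the summed FPKM of Fabp1, Fabp2 and Fabp4 in every library.

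**Figure D2:**
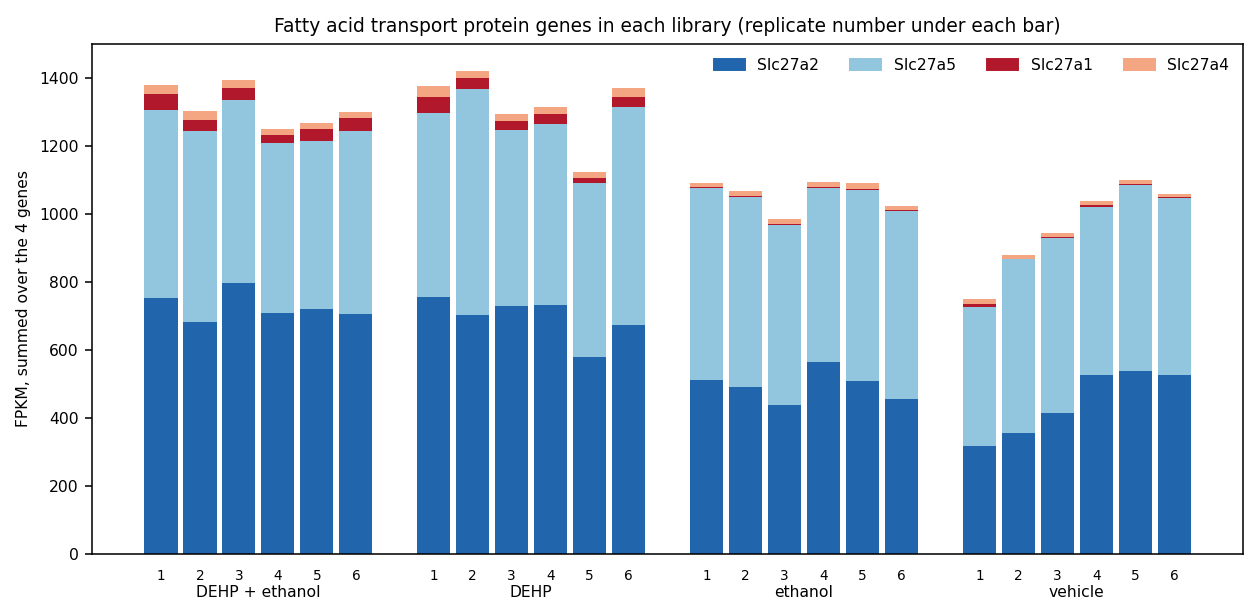
FPKM of Slc27a2, Slc27a5, Slc27a1 and Slc27a4 stacked for each library, in the order combination, DEHP, ethanol and vehicle, with replicate numbers under the bars. Slc27a2 and Slc27a5 make up most of every bar; the Slc27a2 segment is the larger of them in all 12 libraries with DEHP, and the Slc27a1 segment is visible mainly there.

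Below Fabp1, the order of mean FPKM was Slc27a2, Slc27a5, Fabp2, Cd36, Fabp4, Slc27a1, Slc27a4 and Vldlr with the combination. With DEHP it was Slc27a2, Slc27a5, Cd36, Fabp2, Fabp4, Slc27a1, Slc27a4 and Vldlr. With vehicle it was Slc27a5, Slc27a2, Fabp2, Fabp4, Slc27a4, Cd36, Slc27a1 and Vldlr, and with ethanol Slc27a5, Slc27a2, Fabp2, Slc27a4, Fabp4, Cd36, Slc27a1 and Vldlr. Counting Fabp1 as the first, neighbours from the fourth to the eighth gene overlapped in their library ranges in both DEHP groups and in the vehicle group, whereas Slc27a5 and Slc27a2 overlapped in every group but the combination. By median rank among all genes of a library, Cd36 stood at 1161.5 with the combination, 1114 with DEHP, 6138.5 with ethanol and 5314 with vehicle.

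Fabp4 (gene 11770, chr3:10204342-10208616), a carrier that also marks adipocytes, varied more than any other of the 9 among DEHP libraries, with a coefficient of variation of 99.0%. Its FPKM was 23.1 to 61.3 with the combination (median 37.5), 10.6 to 145 with DEHP (median 34.3), 3.30 to 7.18 with ethanol (median 5.86) and 7.65 to 43.9 with vehicle (median 10.9). In DEHP replicates 1 to 6 it measured 145, 11.7, 37.4, 75.9, 10.6 and 31.2. DEHP replicates 2 and 5 thus lay beside the vehicle libraries, and vehicle replicate 1 lay within the range of both DEHP groups. Against vehicle Fabp4 rose by a log2 change of 1.73 ± 0.50 (SE, adjusted p = 0.0119, edgeR) with DEHP and 1.34 ± 0.50 (adjusted p = 0.0374) with the combination. The first call was lost without DEHP replicate 1 (1.05, adjusted p = 0.0841), and the second when any 1 of 8 vehicle or combination libraries was left out or genes were not filtered (adjusted p = 0.0544).

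Without vehicle replicate 1, combination replicate 6 and DEHP replicate 6, Fabp4 ran between 23.1 and 53.6 FPKM in 5 combination libraries, between 10.6 and 145 in 5 DEHP libraries, and between 7.65 and 11.6 in 5 vehicle libraries. The combination then did not overlap vehicle, and DEHP replicate 5 still did. Log2 changes were 2.48 ± 0.50 (SE, adjusted p = 0.00107, edgeR) for DEHP and 1.83 ± 0.51 (adjusted p = 0.00782) for the combination, both larger than with all libraries. In that comparison of the remaining libraries 10.7% of all genes rose with DEHP and 16.9% with the combination.

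Adipocyte markers were also uneven across libraries. Of 2 that were tested, 1 was higher with DEHP than with vehicle, where 14.4% of all genes rose. The sum of 8 such genes, of which 7 were listed, was 3.05 to 68.8 FPKM with the combination, 10.6 to 37.0 with DEHP, 2.12 to 3.24 with ethanol and 2.37 to 24.5 with vehicle. The highest values were those of combination replicate 6, DEHP replicate 6 and vehicle replicate 1. Without them the sums reached 9.10 with the combination, 17.2 with DEHP and 8.22 with vehicle. Adipoq, which defines adipocytes, was listed at 0 in 5 of 6 combination, 5 of 6 DEHP, 5 of 6 ethanol and 4 of 6 vehicle libraries. Adrb3 and Cfd made up most of the sums: Adrb3 had a median of 3.99 FPKM with the combination, 6.73 with DEHP, 2.45 with ethanol and 3.46 with vehicle. Cfd had a median of 1.35 FPKM with the combination, 6.93 with DEHP, 0.085 with ethanol and 0.34 with vehicle, and in the 3 libraries named above it was the larger of the pair. DEHP replicate 1, the library with the most Fabp4, had an adipocyte sum of 11.4 FPKM with Adipoq at 0, and its macrophage sum of 406 FPKM was the highest of the 24. Over 10 macrophage markers, 0 were called between all DEHP and all vehicle libraries, where 26% of all genes changed in either direction. The part of these cells in the Fabp4 result was not tested.

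**Figure D3:**
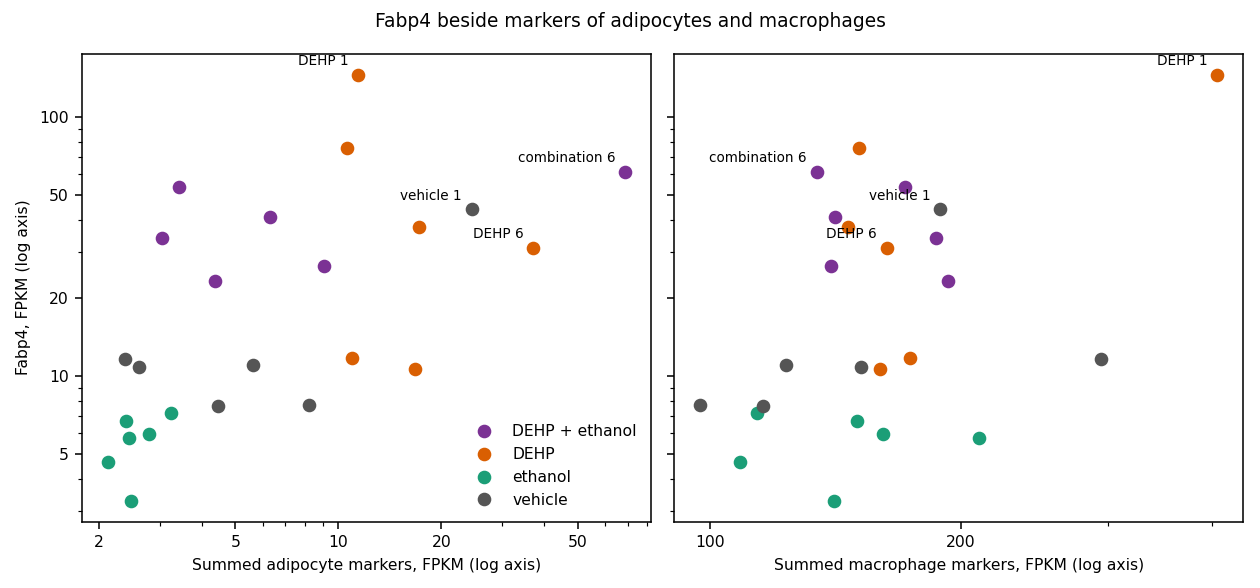
Fabp4 FPKM (log axis) of each of 24 libraries against the summed FPKM (log axes) of adipocyte markers on the left and macrophage markers on the right, coloured by group. Combination 6, DEHP 6 and vehicle 1 lie at the high end of the adipocyte sums, DEHP 1 is highest for Fabp4 and for the macrophage sum, and 5 combination libraries have Fabp4 above 5 vehicle libraries at adipocyte sums of at most 9.10 FPKM.

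Vldlr (gene 22359, chr19:27216480-27254231), the receptor for triglyceride-rich lipoproteins, was scarce, with 5 to 188 counts per library. The lncRNA gene Gm35438 overlaps it. It measured 0.69 to 3.04 FPKM with the combination (median 1.30), 0.54 to 1.73 with DEHP (median 1.24), 0.08 to 0.36 with ethanol (median 0.23) and 0.25 to 2.61 with vehicle (median 0.34). Vehicle replicate 1 supplied the 2.61 FPKM, and the other 5 lay at 0.25 to 0.42 FPKM, below every library with DEHP. The log2 change was 0.72 ± 0.47 (SE, adjusted p = 0.274, edgeR) for DEHP and 1.01 ± 0.47 (adjusted p = 0.0937) for the combination, each against vehicle. Without the 3 libraries both passed the threshold, at 1.70 ± 0.33 (adjusted p = 6.02e-04) and 1.73 ± 0.33 (adjusted p = 2.63e-04). Without vehicle replicate 1 alone the values were 1.79 and 2.07, both past the threshold. With all libraries, limma called Vldlr for the combination on log2(FPKM + 1) (0.57, adjusted p = 0.0475) and on log2(FPKM + 0.1) (1.25, adjusted p = 0.0248).

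**Figure D4:**
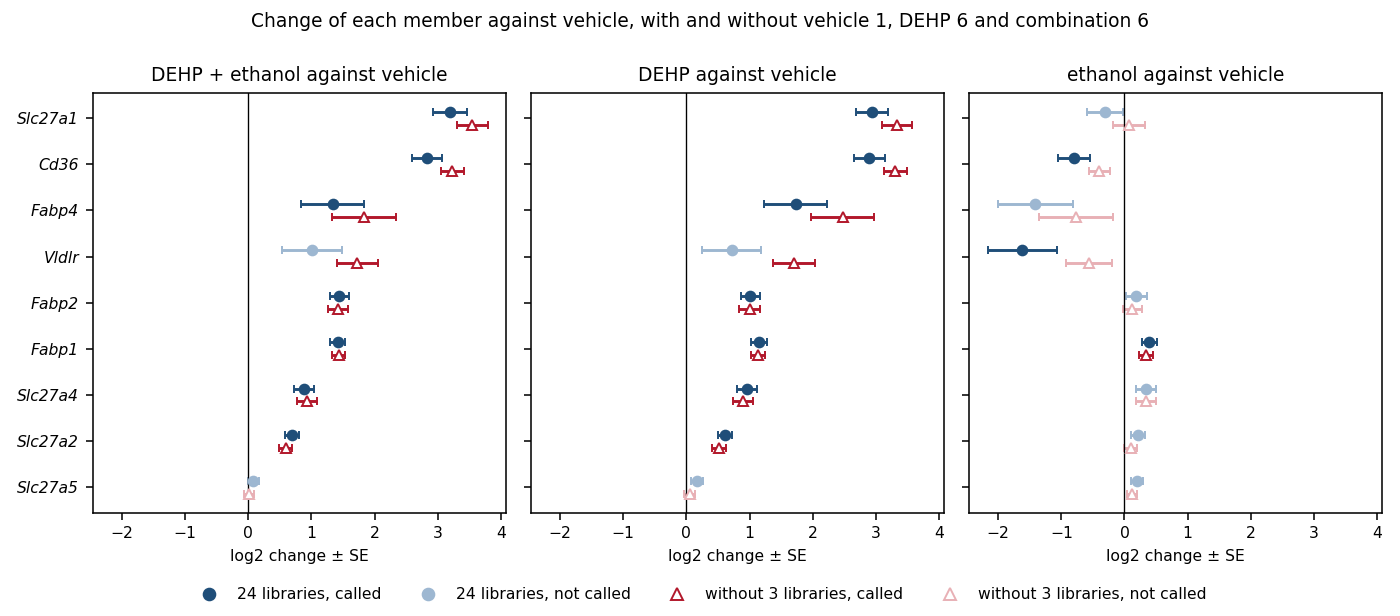
Log2 change ± SE of each gene for the combination, DEHP and ethanol, each against vehicle; blue circles use all 24 libraries, red triangles leave out vehicle replicate 1, DEHP replicate 6 and combination replicate 6, and pale symbols did not pass an adjusted p of 0.05. Removing the 3 libraries moves Vldlr past the threshold in both DEHP panels and leaves Cd36 and Vldlr short of it in the ethanol panel.

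Ethanol alone gave smaller and mixed changes. Against vehicle, 1 of the 9 rose and 2 fell, where 28.8% of all genes changed, 14.2% upward and 14.5% downward, so the share among the 9 was near the background. Fabp1 rose by a log2 change of 0.39 ± 0.12 (SE, adjusted p = 0.0152, edgeR), and stayed called without the 3 libraries (0.34, adjusted p = 0.0271) but not on TPM values (0.25). Cd36 fell by 0.80 ± 0.25 (adjusted p = 0.0171) and Vldlr by 1.62 ± 0.55 (adjusted p = 0.0294) on the log2 scale. Both calls were lost without vehicle replicate 1: the log2 change of Cd36 was then -0.40 (adjusted p = 0.0756) and that of Vldlr -0.55 (adjusted p = 0.339). The Vldlr call was also lost when ethanol replicate 1, 3 or 6 was left out. The log2 change of Slc27a1 was -0.31 with all libraries and 0.07 without that one, outside the threshold in both. In the ethanol comparison TPM scaling put the median of all genes at -0.15 and the share of rises among calls at 14.8%, against 49.5% with TMM.

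Fabp4 was the 1 gene of the 9 whose ethanol and vehicle libraries did not overlap, a share near the 10.7% of all genes. It measured 3.30 to 7.18 FPKM with ethanol and 7.65 to 43.9 with vehicle. Its log2 change of -1.41 ± 0.60 did not pass the threshold (adjusted p = 0.0745, edgeR) and was -0.77 without vehicle replicate 1. It did pass with DESeq2 (-1.40, adjusted p = 0.0395), with only the groups compared (-1.42, adjusted p = 0.0188) and without DEHP replicate 1 (adjusted p = 0.0310). Changes of Slc27a4 (0.34, 95% interval 0.02 to 0.66, adjusted p = 0.0970), Slc27a2 (0.21, -0.03 to 0.44, adjusted p = 0.170), Slc27a5 (0.20, 0.02 to 0.38, adjusted p = 0.0833) and Fabp2 (0.19, -0.13 to 0.51, adjusted p = 0.364) were positive and outside the threshold.

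With ethanol added to DEHP, no difference among the 9 passed the threshold. For the combination against DEHP, 0 of the 9 passed in edgeR, where 0.122% of all genes did, and no gene of the 9 had groups apart, against 0.664% of all genes. At an unadjusted p below 0.05 there were 2 of the 9, where 10.8% of all genes passed. Fabp2 had a log2 change of 0.43 (95% interval 0.13 to 0.74, adjusted p = 0.297), and Fabp1 one of 0.28 (0.04 to 0.52, adjusted p = 0.393). For Cd36 the interval was -0.53 to 0.38, for Slc27a1 -0.23 to 0.73, for Slc27a2 -0.16 to 0.31, for Slc27a4 -0.39 to 0.24 and for Slc27a5 -0.26 to 0.09. The intervals of Fabp4 (-1.34 to 0.56) and Vldlr (-0.64 to 1.22) leave room for changes of more than 1 log2 unit.

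The interaction asks whether the change that ethanol brought differed with and without DEHP. In edgeR 0 of the 9 passed, where 6.41% of all genes did. At an unadjusted p below 0.05 there were 3, where 23.4% of all genes passed. These were Vldlr (1.91 ± 0.72, adjusted p = 0.101), Cd36 (0.73 ± 0.33, adjusted p = 0.177) and Slc27a5 (-0.28 ± 0.12, adjusted p = 0.153), and without vehicle replicate 1 Vldlr was at 0.83 ± 0.51 (adjusted p = 0.355), Cd36 at 0.31 ± 0.22 (adjusted p = 0.418) and Slc27a5 at -0.23 ± 0.11 (adjusted p = 0.226).

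Against ethanol alone, the combination raised 8 of the 9 and lowered 0 in edgeR, where 15.1% of all genes rose and 27.8% changed. Groups did not overlap for 7, Vldlr among them, against 15.7% of all genes. Leaving Vldlr aside for the reason given above, 7 of 8 rose. The vehicle libraries are not part of this difference, but they share in the filter, the scaling and the estimate of spread behind its p-values. Leaving out vehicle replicate 1 alone gave 3.62 ± 0.16 (SE) for Cd36. Cd36 had the highest value, 3.63 ± 0.25 (SE, adjusted p = 9.19e-11), a 12.4-fold difference (95% interval 8.61 to 17.8), followed by Slc27a1 at 3.50 ± 0.27 (adjusted p = 4.67e-10). Fabp4 rose by 2.75 ± 0.57 (adjusted p = 5.73e-04) and by 2.60 without the 3 libraries, and Vldlr by 2.63 ± 0.53 (adjusted p = 5.04e-04). Fabp2 rose by 1.25, Fabp1 by 1.03, Slc27a4 by 0.54 and Slc27a2 by 0.48 on the log2 scale. Slc27a5 had a log2 change of -0.12 (95% interval -0.29 to 0.06, adjusted p = 0.339).

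The other members of the Fabp and Slc27 families were mostly absent from liver: of 9, 3 were not listed in any library, 3 stayed below 1 FPKM, and Fabp3, Fabp5 and Fabp7 were tested. Fabp5, the epidermal form, rose with the combination against vehicle (adjusted p = 0.00772, edgeR), at 140 ± 42.5 FPKM with the combination and 51.9 ± 38.1 with vehicle (SD, n = 6 each). Fabp7, the brain form, fell in the same comparison by 1.32 on the log2 scale, at 0.775 FPKM with the combination and 1.93 with vehicle, and was not called without the 3 libraries. Fabp3, the heart and muscle form, was called in 4 of the 6 comparisons, with -4.69 for DEHP and -7.77 for ethanol against vehicle. It measured 279 FPKM in combination replicate 6 and 220 FPKM in vehicle replicate 1, the libraries with muscle transcripts, and at most 5.23 FPKM in the others. Without the 3 libraries Fabp3 was not called for DEHP or ethanol against vehicle, and its log2 change was 2.12 for the combination against vehicle (adjusted p = 0.0183). Its interaction was then not called (2.84, adjusted p = 0.222, edgeR), and the combination against ethanol stayed called (3.89, adjusted p = 9.11e-04).

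Among 15 tested genes of fatty acid activation and acyl-CoA binding, 5 rose and 0 fell with DEHP, 7 rose and 0 fell with the combination, and 1 rose and 2 fell with ethanol, each against vehicle. Over all genes 26% changed and 14.4% rose with DEHP, 36.8% and 19.3% with the combination, and 28.8% and 14.2% with ethanol. Counted in either direction, DEHP and ethanol were near the background, but the 5 calls with DEHP were all rises. No set test was run, and this list too was chosen with earlier results of these data known. The median log2 change was 0.18 with DEHP, 0.26 with the combination and -0.18 with ethanol, where that of all genes was -0.02, -0.01 and -0.01. With DEHP, Acss3 and Acss2, synthetases that activate short-chain acids, rose by 1.44 ± 0.19 and 1.16 ± 0.20. Acsl5, a long-chain acyl-CoA synthetase, rose by 0.65 ± 0.12, and Dbi, the acyl-CoA binding protein, by 0.58 ± 0.10 (SE, adjusted p of at most 2.87e-04 for these, edgeR). Dbi averaged 1840 ± 281 FPKM with the combination, 1590 ± 299 with DEHP, 953 ± 81.7 with ethanol and 1050 ± 67.7 with vehicle (SD, n = 6 each). Acsl4, which prefers arachidonic acid, fell with ethanol by 0.83 ± 0.11 (adjusted p = 1.06e-05), at 7.37 ± 0.512 FPKM with ethanol and 13.8 ± 2.85 with vehicle, and the interaction of Acsl4 was 0.58 (adjusted p = 0.0240), a call lost without the 3 libraries. The combination against ethanol gave 8 rises and 1 fall, where 15.1% of all genes rose and 27.8% changed. Against DEHP the combination gave 0 calls, where 0.122% of all genes were called.

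Of 14 tested lipoprotein receptors, lipases and uptake partners, 3 rose and 1 fell with DEHP, 4 rose and 1 fell with the combination, and 5 rose and 1 fell with ethanol, each against vehicle. With 26%, 36.8% and 28.8% of all genes changed by DEHP, the combination and ethanol, the counts for DEHP and the combination were at the background. The ethanol count was above it with all libraries, and without the 3 libraries 4 rose and 0 fell with ethanol. The median log2 change was 0.08 with DEHP, 0.10 with the combination and 0.14 with ethanol. Lpl, the lipase that frees fatty acids from circulating triglyceride, was 30.8 to 111 FPKM with the combination, 41.3 to 63.7 with DEHP, 4.94 to 7.07 with ethanol and 3.87 to 73.5 with vehicle. Only vehicle replicate 1 stood above 6.98 FPKM in its group. The log2 change of Lpl with DEHP against vehicle was 1.64 ± 0.50 (SE, adjusted p = 0.0173, edgeR) with all libraries and 3.17 (adjusted p = 1.18e-11) without the 3. The fall of Lpl with ethanol (-1.41, adjusted p = 0.0434) was 0.11 without them. Scarb2 fell with DEHP by 0.32 ± 0.09 (adjusted p = 0.00795), and Got2, a mitochondrial aminotransferase also described as a fatty acid binding protein of the membrane, rose by 0.40 ± 0.08 (adjusted p = 6.11e-04). The combination against ethanol gave 3 rises, Lpl at 3.16 the largest of them, and 3 falls, where 27.8% of all genes changed. Against DEHP the combination gave 0 calls, where 0.122% of all genes were called.

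Likeness of pattern was measured as Pearson's r of log2(FPKM + 1) across the 24 libraries, which share 4 treatment groups, and is a description. The 3 closest genes to Cd36 were Hadhb (0.976), Vwa8 (0.964) and Acadl (0.964). Those to Slc27a1 included Abcc4 (0.977) and Hadha (0.967). For Fabp1 they were Psmb7 (0.973), Acadvl (0.952) and Eci2 (0.951). Those of Fabp2 included Psmb7 too (0.941), after Prdx1 (0.956) and before Gstk1 (0.936). Among the 3 closest to Slc27a2 were Mmd (0.971) and Decr2 (0.957), and Slc27a4 was closest to Atp9a (0.939), Wdr18 (0.934) and Afg3l1 (0.928). Slc27a5, which did not pass in any comparison, had the lowest values, with Sardh (0.873), Gpt (0.839) and Agmat (0.821). The genes nearest Fabp4 were Nol3 (0.916), Trpm4 (0.910) and Dmpk (0.900), and those nearest Vldlr included Pla2g16 (0.922) and Idh2 (0.905). The libraries with muscle transcripts entered all of these values.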

How the data were processed

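Per the file headers, the authors deposited for each of 24 liver libraries a table with an expected count and an FPKM value per gene; 94.5% to 95.3% of the estimated counts were whole. The deposited FPKM values are counts scaled to transcript length and library size. The submitters' processing notes name Cuffdiff and the builds mm10 and GRCm38. For the aligner, the counting program, its use of strand and its handling of shared reads, nothing is given in the sources used here.

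Groups came from the sample titles. Genes absent from a table were set to 0. Expected counts were rounded and tested in edgeR 4.0.16 (R 4.3.3) by the quasi-likelihood F test with TMM factors, all 4 groups in 1 model and 20 residual degrees of freedom, for 10697 of 17537 genes with at least 1 FPKM in at least 6 libraries. P-values were adjusted over all genes tested by the Benjamini-Hochberg method, with calls made below 0.05. The standard error is the unshrunken log2 change over the square root of F. The interaction is the combination-minus-DEHP change less the ethanol-minus-vehicle change. Alternatives were DESeq2 1.42.0, no TMM factors, limma 3.58.1 on log2(TPM + 1), log2(FPKM + 1) and log2(FPKM + 0.1), no filter, a mean of at least 5 FPKM, only the groups compared, a replicate block, and libraries left out. The test was tried on simulated data.

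The members, the gene lists and the markers were chosen with earlier results of these data known. Named are all 9 members, called list genes with the smallest adjusted p (up to 4 per list and comparison) and the 3 closest genes to each member; predicted genes were passed over, and some genes that this rule names are not reported here. Fabp3, Fabp5 and Lpl are given in comparisons outside that rule after their values were seen, as are the marker genes Adipoq, Adrb3, Cfd, Anpep, Sis and Lct. Coordinates and promoters are from RefSeq on GRCm38.p6; promoters of 7 of the 9 members matched. Few counts can limit precision for scarce genes such as Vldlr, which was not tested.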

Additional observations from a re-analysis of the deposited data

Results flagged for a closer look

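Vehicle replicate 1 stood apart from the other 5 vehicle libraries for 4 of the 9 genes, by a gap above Dixon's 95% critical share of the group's whole range. Cd36 was 22.0 FPKM in it against 5.11 to 9.77 in the others (gap of 0.725 of the range), and Slc27a1 was 8.94 against 2.05 to 4.13 (0.698). Fabp4 was 43.9 FPKM against 7.65 to 11.6 (0.891), and Vldlr was 2.61 against 0.25 to 0.42 (0.928). Among the 36 combinations of gene and group examined, chance flags about 1 in 20. The same library held 7552 FPKM of summed skeletal muscle markers. Their part in these values was not tested.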

How the results depend on the processing

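Over all alternatives, log2 changes of the 9 genes kept direction and side of the threshold in 1777 recalculations, lost a call in 23, gained one in 11 and changed sign in 10, and counts of calls stayed within 1.5 times in 915 and moved further in 100. The counts of the 9 called for DEHP and for the combination moved by less than that; for ethanol against vehicle the count was 3 with all libraries, 1 on TPM, 1 without vehicle replicate 1, DEHP replicate 6 and combination replicate 6 (the 3 libraries), 5 with only the groups compared, and 1 to 4 leaving out 1 library. Signs changed for values outside the threshold only: Slc27a1 in ethanol against vehicle (0.07 without the 3 libraries, -0.42 to 0.07 leaving out 1), Slc27a4 in the combination against DEHP (0.03 without the 3, -0.17 to 0.06), Fabp4 there (0.09 on TPM, 0.12 on log2(FPKM + 1), 0.14 on log2(FPKM + 0.1), -0.61 to 0.29), Vldlr there (-0.05 to 0.45) and Slc27a5 in the combination against ethanol (0.01 on TPM). The cause was not tested. Fabp4 for DEHP against vehicle was 1.72 and outside the threshold with only the groups compared (adjusted p = 0.0581), and Slc27a4 for ethanol was 0.33 and inside it there (adjusted p = 0.0141). The ethanol fall of Vldlr was outside it with limma (-0.49 on TPM, -0.37 on log2(FPKM + 1), -0.93 on log2(FPKM + 0.1)).

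The count for the other family members was 1 for DEHP against vehicle and 0 with DESeq2, limma on all 3 scales, no filter, the replicate block and without the 3 libraries (0 to 1 leaving out 1 library). For ethanol it was 1, 0 with DESeq2, limma and without the 3, and 2 with no filter (0 to 1); for the combination against vehicle 2, and 1 on log2(FPKM + 1), with a mean of at least 5 FPKM and with only the groups compared (1 to 3); against ethanol 1, 0 with DESeq2 and on log2(FPKM + 1), and 2 with no TMM factors, only the groups compared and without the 3 (0 to 2); for the interaction 1, and 0 with DESeq2, limma and without the 3 (0 to 1). For activation genes ethanol gave 3 and 5 on TPM (3 to 5), and the interaction 2 and 0 without the 3 (1 to 3). For lipoprotein genes DEHP gave 4 and 2 with only the groups compared, ethanol 6 and 3 on TPM, and the combination against ethanol 6 and 3 on log2(FPKM + 1). Their interaction count was 1, and 0 with no TMM factors, limma, no filter, the block and without the 3 (0 to 2). Over all genes the combination against DEHP gave 13 calls, 40 with DESeq2, 7 on log2(FPKM + 1), 6 on log2(FPKM + 0.1), 1 with no filter, 6 with only the groups compared, 5 with the block and 8 without the 3 (0 to 18). The interaction gave 686 and 365 without the 3. On TPM the median of all genes moved to 0.124 and the rises to 78.7% of calls for the combination against ethanol, where TMM gave 54.4%, and to 0.111 and 78.5% for the interaction, where TMM gave 51.7%.

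Replicate numbers did not pair the libraries: same-numbered libraries correlated at -0.206 to 0.212 in their deviations from the group means, above 0.1 in 7 of 36 pairs, and 3 of 24 libraries correlated best with their own number. With the replicate block the counts of the 9 called were 7 for DEHP, 3 for ethanol and 7 for the combination against vehicle, 0 for the combination against DEHP, 8 against ethanol and 0 for the interaction. In ethanol against vehicle, Vldlr was -1.34 and outside the threshold with it, and Fabp4 was -1.24 and inside. Vldlr had 5 to 188 counts per library, and the part of depth in its spread was not tested.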

Other observations

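The authors' tables give each gene a length per library. For Cd36 it was 3438 to 3445 bases in combination libraries, 3440 to 3448 with DEHP, 3446 to 3466 with ethanol and 3455 to 3493 with vehicle. For Vldlr it was 8280 to 8327 bases with the combination, 8243 to 8327 with DEHP, 8243 to 8270 with ethanol and 8243 to 8327 with vehicle. Fabp1, Fabp2 and Fabp4 had a single length in all libraries. How the authors derived these lengths is not given in the sources used here.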
